A study of Danio rerio with 16 samples.

Results

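Genes for integrins, cadherins, immunoglobulin-type adhesion receptors and the cytoplasmic proteins that bind integrins were compared between DKO and control (CTRL) hearts at 48 hpf. They were chosen by a rule on gene symbols, and 57 of the 15419 genes in the count files matched. The symbols begin with itga, itgb, alcam, mcam, ncam, cadm, nectin, vcl, tln, parv, pxn, lims or fermt, or are *ilk* or a cadherin whose number begins with 1, 2, 3, 4 or 6. The endothelial cadherin gene *cdh5* was not among them. The DKO embryos carried *rbfox1l*-/-; *rbfox2*-/-, with the frameshift alleles chb5 of *rbfox1l* and chb6 of *rbfox2*, both genes for RNA binding proteins. The labels call the CTRL embryos sibling controls, whereas the design text calls them wild type. Both groups were embryos of the Tubingen strain carrying the *myl7:GFP* reporter, in which a myocardial promoter drives GFP, and their hearts were dissected under fluorescence and pooled. Each of the 8 CTRL and 8 DKO libraries was made from the poly(A) RNA of a separate pool, so n = 8 in each group throughout. The counts join all isoforms of a gene, so they measure the amount of its transcripts and not their splicing.

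Integrins are heterodimers of an alpha and a beta chain that bind the extracellular matrix. On the cytoplasmic side talin and kindlin bind the beta chain, and vinculin and the complex of integrin-linked kinase, a PINCH protein and a parvin connect it to actin. Cadherins and nectins hold neighbouring cells together at adherens junctions, which in the heart anchor the myofibrils of one cardiomyocyte to the next, and the immunoglobulin-type receptors Alcam, Mcam, Ncam and Cadm bind partners on other cells.

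Between 8809208 and 18783628 reads per library were counted on genes. The targeted genes were lower in DKO hearts, *rbfox1l* by 2.78 ± 0.22 (SE) on the log2 scale (37.7 to 93.8 CPM against 261 to 666 in CTRL) and *rbfox2* by 1.55 ± 0.20 (23.5 to 39.6 CPM against 47.6 to 154). CPM are a gene's reads scaled to the library total and normalized between libraries by edgeR's trimmed mean of M-values (TMM). Defining heart genes were present in both groups, but the marker lists of the cell types that a dissected heart can hold shifted. Of the markers tested, 17 of 22 for cardiomyocytes, 11 of 18 for endocardium and endothelium, 1 of 4 for epicardium, 3 of 7 for outflow tract smooth muscle and 7 of 8 for red cells were lower in DKO at an adjusted p under 0.05. By the same test 10 of 13 markers of epidermis, 9 of 12 of leukocytes, 9 of 13 of pharyngeal arches and neural crest and 3 of 13 of neurons were higher, with *hand2* of the arch list lower and the red cell gene *klf17* higher. Among the other lists 1 of 5 thrombocyte markers was higher and 1 lower, 2 of 10 skeletal muscle markers were lower and 1 of 4 kidney tubule markers was higher, and of 9 liver and yolk markers 0 passed in edgeR or DESeq2, with 1 higher and 0 lower at an unadjusted p under 0.05 in either tool. Over all genes tested 13.2% were higher and 13.9% lower in edgeR at an adjusted p under 0.05. The summed level of the cardiomyocyte markers ranged from 18566 to 35718 CPM in CTRL and from 8393 to 19812 in DKO. That of the endocardial markers ranged from 1779 to 2588 CPM in CTRL and from 1136 to 2071 in DKO. The epidermal sum ranged from 5858 to 27385 CPM in CTRL and from 20945 to 46338 in DKO. The sums did not overlap for red cells (299.8 to 819 CPM in CTRL and 74.7 to 118 in DKO), for skeletal muscle (1122 to 2265 and 522 to 1023) or for the arches and neural crest (2054 to 2614 and 1550 to 2001), where the sum was lower in DKO although 9 of its 13 markers were higher. *hand2*, the arch marker that was lower, is also in the cardiomyocyte list and is counted in both. Reads were at 0 in every library for the endothelial *plvapb*, the epicardial *aldh1a2* and the macrophage gene *mpeg1.1*. In pooled tissue fewer cells of a type and less RNA per cell cannot be told apart, and the part of these shifts in the differences below was not tested.

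Under TMM scaling the adhesion genes split into a set that was higher and a set that was lower in DKO hearts. Integrin genes were in both. The higher set held *itgav*, *itgb1b.1*, *itgb1b.2*, *itgb4*, *itgb5*, *cdh1*, *alcamb*, *nectin1b*, *ncam1a* and *cadm4*. The lower set held *itga5*, *itga9*, *itgb1b*, *itgb3b*, *alcama*, *cdh2*, *mcamb*, *nectin3b* and 5 genes for proteins on the cytoplasmic side of integrins. The lower set depends on the scale, since 10 of its 13 genes had a log2 fold change above 0 when libraries were scaled on cardiomyocyte markers and 8 of 13 when they were scaled on endocardial markers. Of the 57 genes, 52 passed the filter on low counts, and edgeR's quasi-likelihood F-test with Benjamini-Hochberg adjustment over all 11750 genes tested was applied. At an adjusted p under 0.05, 10 of 52 (19.2%) were higher, against 13.2% of all genes, and 13 of 52 (25.0%) were lower, against 13.9% of all genes. Scaling on library size alone, which moved the median of all genes by 0.14, gave 14 higher (26.9%, background 22.2%) and 9 lower (17.3%, background 9.96%), and lower genes then made up 31.0% of all calls over all genes, against 51.2% under TMM. With a change of over 1.5-fold added, 8 were higher (background 9.06%) and 7 lower (background 8.54%). The study also required an authors' FPKM over 5 in at least 1 library, which left *cdh1* and *itgb1b.1* as higher (2 of 52, background 3.32%) and *alcama*, *lims2*, *mcamb* and *parvb* as lower (4 of 52, background 4.66%). The FPKM divide by a length that includes introns, which lowers the FPKM of a long gene for a given count. *itga9*, with a highest FPKM of 0.683, and *nectin1b*, with 0.252, fell short of the threshold. Complete separation was rare: 1 gene, *itgb3b*, was lower in all 8 DKO than in all 8 CTRL libraries (background 4.38%), and 0 genes were higher in all 8 (background 1.29%). The median log2 fold change was -0.02 over the 52 genes and 0.02 over all genes tested. No reads were counted for *cdh15*, *itga6b* and *nectin1a* in any of the 16 libraries, where 3 reads would be about 0.354 CPM at most. Of all genes in the count files 1020 had no reads. Whether such genes are silent or were missed in counting was not tested. *cadm1b* (0 to 25 reads) and *cadm2b* (1 to 28 reads) did not pass the filter.

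**Figure D1:**
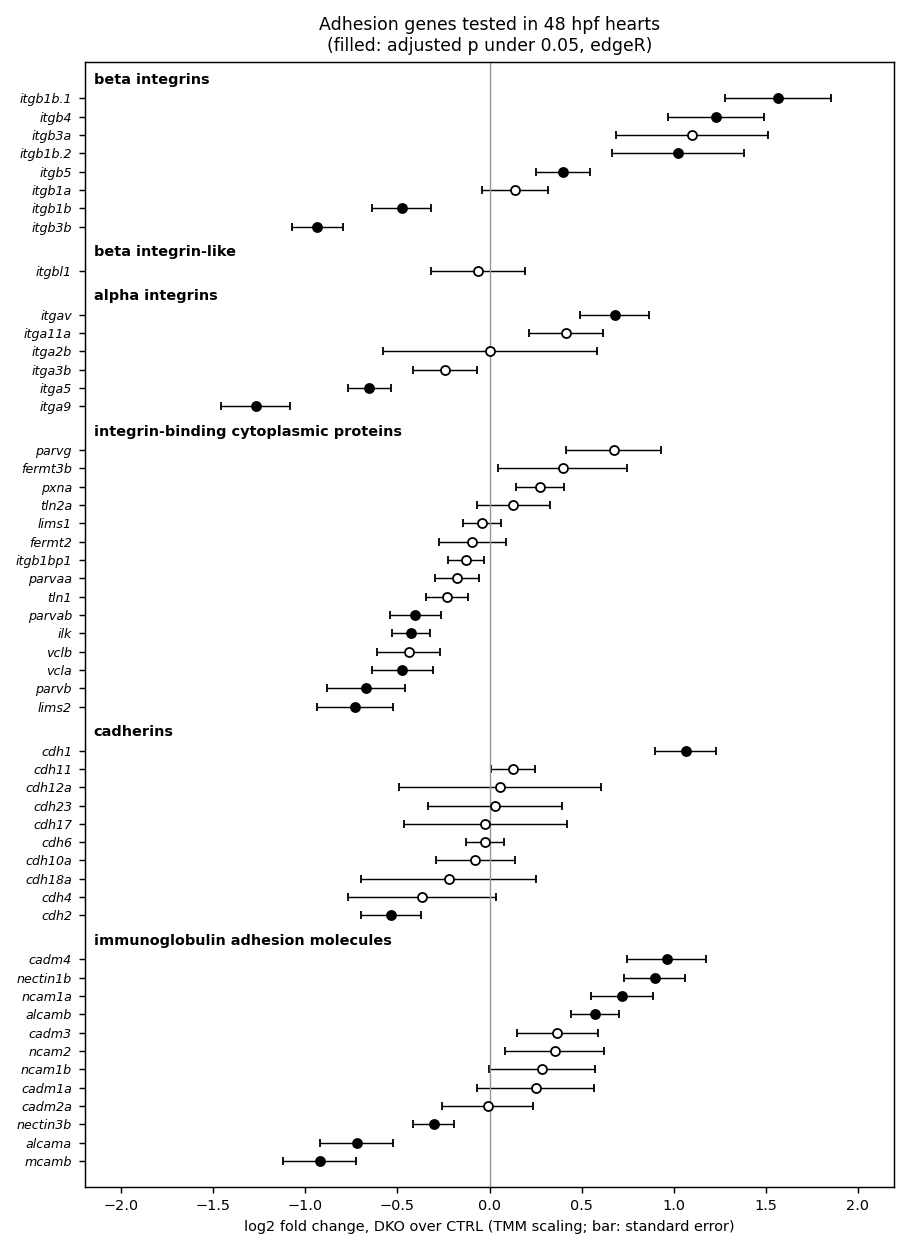
Log2 fold change of DKO over CTRL under TMM scaling (horizontal axis) with its standard error for the 52 adhesion genes tested, grouped by role; filled points passed an adjusted p under 0.05 in edgeR. The 13 filled points below 0 run from *nectin3b* at -0.30 to *itga9* at -1.27 and the 10 above 0 from *itgb5* at 0.40 to *itgb1b.1* at 1.57; 10 of the 13 lie above 0 under cardiomyocyte-marker scaling and 8 under endocardial-marker scaling.

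Among the 8 beta integrin genes 4 were higher, 2 were lower and 2 did not pass, with a median log2 fold change of 0.71. The shares over all genes were 13.2% higher and 13.9% lower. The change was largest for *itgb1b.1*, one of the zebrafish genes for integrin beta 1, the most widely shared beta chain. It lay at 24.5, 41.6 and 103 CPM in the lowest, median and highest CTRL library and at 78.8, 142 and 222 CPM in DKO. In DKO 7 of 8 libraries were above every CTRL library, and the groups overlapped only through DKO replicate 7 and CTRL replicates 2 and 4, the highest CTRL libraries. DKO exceeded CTRL by 1.57 ± 0.29 on the log2 scale, or 2.96-fold (adjusted p = 0.000697). Its neighbour *itgb1b.2* had 5.53, 17.2 and 28.5 CPM in CTRL and 11.8, 33.8 and 58.2 CPM in DKO, with 6 of 8 DKO libraries above all CTRL libraries. Its log2 difference was 1.03 ± 0.36 (adjusted p = 0.0421), and the call was lost in 10 of the 16 fits that each left out 1 library. The third gene of this cluster, *itgb1b*, had the most CPM of the beta chains in CTRL hearts, at 131, 199 and 241 CPM, and 95.8, 126 and 196 CPM in DKO. It moved the other way, with 4 of 8 DKO libraries below all CTRL libraries and a log2 difference of -0.48 ± 0.16 (adjusted p = 0.0323, lost in 8 of 16 fits without 1 library, with values above 0 under both marker scalings). The copy on another chromosome, *itgb1a*, was at 11.5 to 33.0 CPM in CTRL and 18.4 to 37.7 in DKO and did not pass (0.14 ± 0.18, adjusted p = 0.628). The 3 *itgb1b* genes lie side by side on one chromosome, and reads could be divided between them in counting, so the value of each is uncertain. The length behind the FPKM was 73.2 kb for *itgb1b*, 16.1 kb for *itgb1b.1* and 14.3 kb for *itgb1b.2*. Whether the gene models used in counting overlap was not checked.

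*itgb4* encodes the beta chain of hemidesmosomes, which fasten epithelial cells to the basement membrane. Its level was 13.7, 18.7 and 45.1 CPM in the lowest, median and highest CTRL library and 30.8, 54.6 and 82.0 CPM in DKO. The groups overlapped through CTRL replicates 2 and 4, which stood far above the other CTRL libraries and also had the highest epidermal marker sums of their group. On the log2 scale the difference was 1.23 ± 0.26, or 2.34-fold (adjusted p = 0.00183). The alpha chain that pairs with beta 4 in mammals is encoded by *itga6*, of which only *itga6b*, at 0 reads, is in the count files. *itgb5*, which pairs with the alpha V chain, was at 12.8, 19.0 and 24.1 CPM in CTRL and 20.4, 23.3 and 32.1 CPM in DKO. Its groups overlapped widely, the log2 difference was 0.40 ± 0.15 (adjusted p = 0.047), and the call was lost in 12 of 16 fits without 1 library.

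The copies of integrin beta 3, a receptor chain for vitronectin and fibrinogen, went apart. *itgb3b* was at 18.4, 21.9 and 29.9 CPM in CTRL and at 8.45, 11.9 and 15.1 CPM in DKO. Every DKO library was below every CTRL library, although counts were modest at 83 to 322 reads. This corresponded to a log2 difference of -0.94 ± 0.14, a 1.91-fold lower level (adjusted p = 4.25e-05), and the adjusted p rose to 0.82 under cardiomyocyte-marker scaling. *itgb3a* was at 4.05, 14.7 and 42.1 CPM in CTRL and 13.9, 39.2 and 51.9 CPM in DKO. It varied widely among CTRL libraries, with replicate 4 the highest and replicates 1 and 3 the lowest, and its log2 difference of 1.1 ± 0.41 did not pass (adjusted p = 0.0579). The secreted integrin-like protein gene *itgbl1*, which is not a receptor chain, did not pass either (-0.06 ± 0.26, adjusted p = 0.892).

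Of the 7 alpha integrin genes 6 were tested, and 1 was higher, 2 were lower and 3 did not pass, with a median of -0.12. Against this, 13.2% of all genes were higher and 13.9% lower. *itga5*, the alpha chain of the fibronectin receptor, had the most CPM among them in CTRL hearts, at 264, 325 and 383 CPM in the lowest, median and highest library, and lay at 140.0, 210.3 and 269 CPM in DKO. Only DKO replicate 8 reached the lowest CTRL libraries, and 7 of 8 DKO libraries were below all of them. DKO differed from CTRL by -0.65 ± 0.12 on the log2 scale (adjusted p = 0.00031), and it was 0.22 under cardiomyocyte-marker scaling. *itga9*, the alpha 9 chain, which binds tenascin and fibronectin in mammals and is known for its role in valves of lymphatic vessels, was at 56.2, 111 and 140.1 CPM in CTRL and 29.1, 40.4 and 64.9 CPM in DKO. Again 7 of 8 DKO libraries were below every CTRL library, and the lowest CTRL value came from replicate 5, which stands apart from all other libraries on the second principal component (-83.9, against -22.3 to 36.8). Its log2 difference was -1.27 ± 0.19, or 2.41-fold (adjusted p = 5.29e-05). It was also below 0 under the marker scalings, at -0.42 (adjusted p = 0.0732) on cardiomyocyte markers and -0.52 (adjusted p = 0.0114) on endocardial markers, where it was the only adhesion gene called lower. *itgav*, the alpha V chain and partner of beta 3 and beta 5, was at 31.2, 40.5 and 66.4 CPM in CTRL and 36.1, 73.1 and 95.1 CPM in DKO. DKO replicate 7 lay among the low CTRL libraries, CTRL replicates 2 and 4 were the highest of their group, and the log2 difference was 0.68 ± 0.19 (adjusted p = 0.0101). The others did not pass. The laminin receptor chain gene *itga3b* had a log2 difference of -0.24 ± 0.17 and the collagen receptor chain gene *itga11a* one of 0.41 ± 0.20, and *itga2b*, the platelet and thrombocyte chain, was nearly absent at 0.216 to 8.91 CPM over all libraries.

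In the 15 genes for integrin-binding cytoplasmic proteins 0 were higher, 5 were lower and 10 did not pass under TMM scaling, with a median of -0.18. The shares over all genes were 13.2% higher and 13.9% lower. All 5 lower genes had values above 0 under cardiomyocyte-marker scaling and 4 of them under endocardial-marker scaling. At an unadjusted p under 0.05 in edgeR 2 genes, *parvg* and *pxna*, were higher, and at an adjusted p under 0.05 DESeq2 called 1 of them, *parvg*, and limma on FPKM both. The 5 were *ilk*, the PINCH gene *lims2*, the parvin genes *parvb* and *parvab* and the vinculin gene *vcla*. *ilk* itself, whose loss in zebrafish weakens the heartbeat, had the most CPM of the group in CTRL hearts, at 273, 339.6 and 420.4 CPM in the lowest, median and highest library, and 207, 267 and 315 CPM in DKO. Of the DKO libraries 5 of 8 were below all CTRL libraries, and the group medians differed by less than the range within either group. DKO differed by -0.43 ± 0.11 on the log2 scale, or 1.34-fold (adjusted p = 0.00459), and under endocardial-marker scaling it was 0.31 with an adjusted p = 0.0234. *lims2*, which encodes a PINCH adaptor, was at 23.7, 39.0 and 49.5 CPM in CTRL and 13.4, 18.9 and 38.9 CPM in DKO. DKO replicates 6, 7 and 8 lay within the CTRL range, and the other 5 were below it. The resulting log2 difference was -0.73 ± 0.21, or 1.66-fold (adjusted p = 0.0118). *parvb*, for beta-parvin, was at 180.2, 292 and 334 CPM in CTRL and 96.9, 168 and 259.7 CPM in DKO. The DKO libraries fell into replicates 1, 2, 4 and 5 below all CTRL libraries and replicates 3, 6, 7 and 8 within their range. Its log2 difference was -0.67 ± 0.21, or 1.59-fold (adjusted p = 0.024), and without DKO replicate 4 it was -0.58 with an adjusted p = 0.05.

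The remaining lower genes of this group were *parvab*, an alpha-parvin copy (-0.40 ± 0.14, adjusted p = 0.0338), and *vcla*, a copy of vinculin, which reinforces junctions under tension (-0.47 ± 0.16, adjusted p = 0.0361). Both calls were lost in fits without 1 library, in 6 of 16 for *parvab* and in 9 of 16 for *vcla*. The second vinculin gene *vclb* was at 75.6 to 241 CPM in CTRL and 87.7 to 168 in DKO, with a like difference that did not pass (-0.44 ± 0.17, adjusted p = 0.0601) and its lowest value in CTRL replicate 5. Neither talin gene passed: *tln1* differed by -0.23 ± 0.12 and *tln2a* by 0.13 ± 0.20. The kindlin gene *fermt2* differed by -0.09 ± 0.18, the second PINCH gene *lims1* by -0.04 ± 0.10, the alpha-parvin copy *parvaa* by -0.18 ± 0.12, the paxillin gene *pxna* by 0.28 ± 0.13 and *itgb1bp1*, whose protein binds the beta 1 tail and which the symbol rule also takes, by -0.13 ± 0.10. The blood cell forms of parvin and kindlin were low, *parvg* at 2.6 to 15.2 CPM (0.67 ± 0.26, adjusted p = 0.0559) and *fermt3b* at 1.16 to 8.0 CPM (0.40 ± 0.35).

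Of the 11 cadherin genes 10 were tested, and 1 was higher and 1 lower, which is no more than the shares over all genes (13.2% and 13.9%). Both are classical cadherin genes. *cdh2*, N-cadherin, the main cadherin of cardiomyocytes, lay at 1093, 1448 and 1924 CPM in the lowest, median and highest CTRL library and at 719, 973 and 1528 CPM in DKO. Replicates 1, 2, 4 and 5 of DKO were below all CTRL libraries, and replicate 8 was above the CTRL median. The log2 difference was -0.53 ± 0.16, or 1.45-fold (adjusted p = 0.0181), and it was 0.23 under cardiomyocyte-marker scaling. *cdh1*, E-cadherin, the cadherin of epithelia, lay at 87.2, 119.9 and 208 CPM in CTRL and 197, 287 and 342 CPM in DKO. Of the DKO libraries 7 of 8 were above every CTRL library, and the overlap came from DKO replicate 8 and from CTRL replicate 5, the highest of its group. *cdh1* differed by 1.07 ± 0.17 on the log2 scale, or 2.1-fold (adjusted p = 7.85e-05). Under the marker scalings it was 1.92 on cardiomyocyte and 1.83 on endocardial markers. Those scalings raised most genes, so a value above 0 there was set beforehand. Relative to the median of all genes *cdh1* was at 1.043 under TMM, 1.055 on cardiomyocyte and 1.047 on endocardial markers. A change of scale moves all genes by a like amount, so this likeness was also set beforehand. The 8 others did not pass. Of these *cdh6* (191 to 296 CPM over all libraries, -0.02 ± 0.11) and *cdh11*, a cadherin of mesenchymal cells (165 to 333 CPM, 0.13 ± 0.12), were well covered, and their standard errors were among the smallest. The rest, *cdh4*, *cdh10a*, *cdh12a*, *cdh17*, *cdh18a* and *cdh23*, were at no more than 28.0 CPM in any library, and their standard errors of 0.21 to 0.55 leave room for changes of the size seen in *cdh2*.

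Among the immunoglobulin-type receptors 12 of 15 genes were tested, of which 4 were higher, 3 were lower and 5 did not pass, with a median of 0.32. Against this, 13.2% of all genes were higher and 13.9% lower. *alcama*, whose protein outlines cardiomyocytes and is stained to trace their borders, had the most CPM of the group. It was at 865, 1248 and 1757 CPM in the lowest, median and highest CTRL library and at 455, 789 and 1134 CPM in DKO. Replicates 1, 2, 4 and 5 of DKO were again below all CTRL libraries. The other 4 exceeded only CTRL replicate 2, the lowest of its group. The log2 difference was -0.72 ± 0.20, or 1.65-fold (adjusted p = 0.0103), and under cardiomyocyte-marker scaling it was 0.02 (adjusted p = 0.892). Its paralog *alcamb* went up, from 182, 204 and 305 CPM in CTRL to 247, 336 and 407 CPM in DKO. In DKO 6 of 8 libraries were above all CTRL libraries, and CTRL replicates 2 and 4 were the highest of their group. This amounted to 0.57 ± 0.13 on the log2 scale, or 1.49-fold (adjusted p = 0.00257). *mcamb*, a receptor of endothelial, smooth muscle and other cells, was at 452, 574 and 944 CPM in CTRL and 203, 327 and 483 CPM in DKO. Of the DKO libraries 6 of 8 were below all CTRL libraries, and the log2 difference was -0.92 ± 0.20, or 1.89-fold (adjusted p = 0.0019), with -0.15 (adjusted p = 0.369) under cardiomyocyte-marker scaling.

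The nectins divided as well. *nectin1b*, of the family that starts junctions between epithelial cells and between neurons, was at 20.1, 25.1 and 43.8 CPM in CTRL and 37.5, 52.1 and 69.3 CPM in DKO. All but 1 DKO library exceeded every CTRL library, of which replicates 4 and 2 were the highest, and the log2 difference was 0.90 ± 0.17, or 1.86-fold (adjusted p = 0.000447). *nectin3b* differed by -0.30 ± 0.11 (adjusted p = 0.0492), was lost in 12 of 16 fits without 1 library and was above 0 under both marker scalings, with an adjusted p = 0.00767 on endocardial markers. *cadm4*, a synaptic and glial adhesion gene that epithelia also express, was at 7.09, 13.4 and 23.8 CPM in CTRL and 16.5, 27.0 and 30.4 CPM in DKO. In 6 of 8 DKO libraries it was above all CTRL libraries, with a log2 difference of 0.96 ± 0.22, or 1.95-fold (adjusted p = 0.00225). *ncam1a*, a neural cell adhesion molecule gene, was at 13.1, 17.9 and 28.1 CPM in CTRL and 24.5, 32.2 and 41.5 CPM in DKO. CTRL replicates 4, 8 and 2 overlapped with the lower DKO libraries, and the log2 difference was 0.72 ± 0.17, or 1.65-fold (adjusted p = 0.00275). The other neural receptor genes *ncam1b*, *ncam2*, *cadm1a*, *cadm2a* and *cadm3* were at 1.38 to 19.5 CPM, and their log2 differences of -0.01 to 0.37 did not pass.

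**Figure D2:**
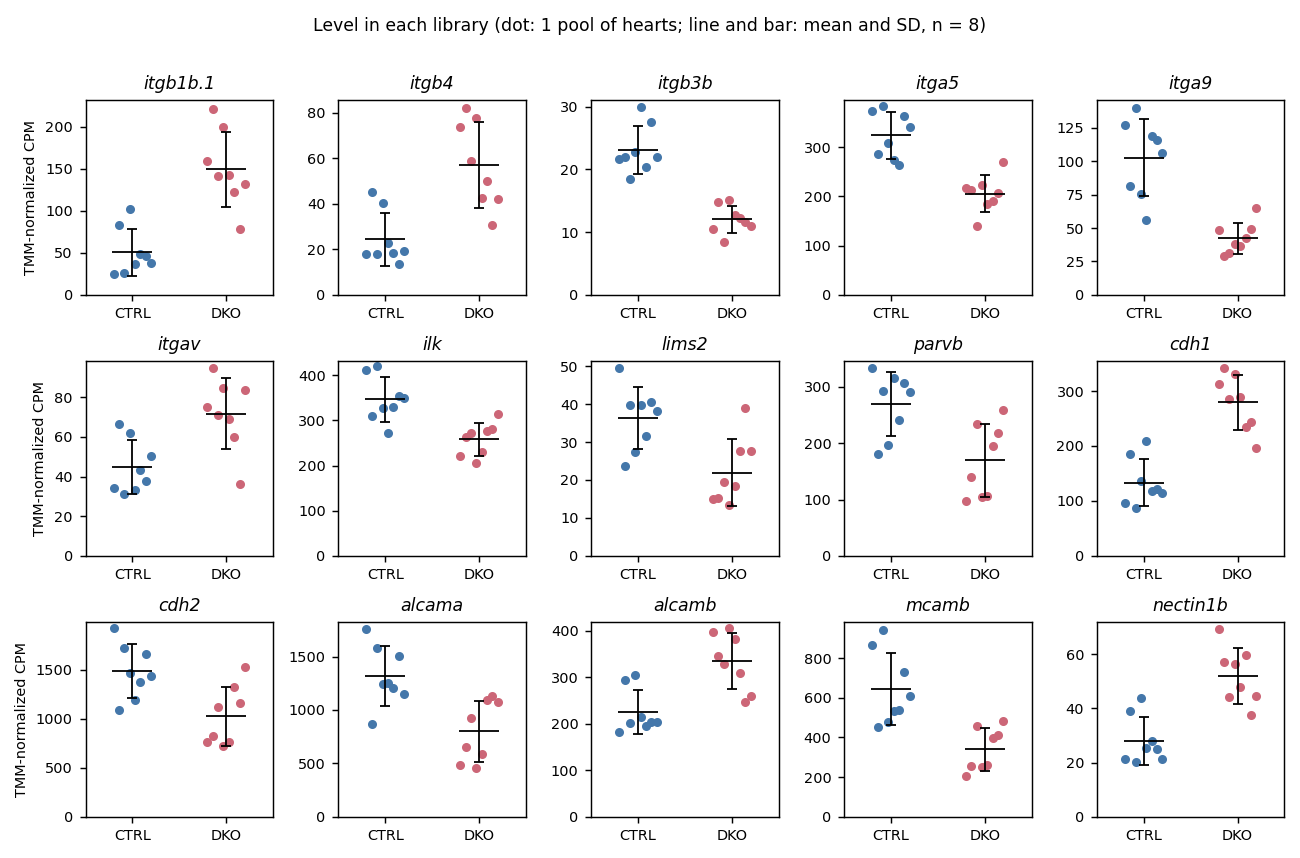
Level in TMM-normalized CPM (vertical axis, from 0) of 15 adhesion genes in each library, with 1 dot for each pool of hearts in CTRL (blue) and DKO (red), the group mean and SD (n = 8). *itgb3b* is the gene whose DKO libraries, at 8.45 to 15.1 CPM, all lie below the CTRL libraries at 18.4 to 29.9; in *alcama*, *cdh2* and *parvb* 4 of 8 DKO libraries lie within the CTRL range.

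Transcripts for partners of adhesion receptors were read from 2 further lists. The first also holds genes for adhesion receptors themselves, among them *cdh5*, *esama*, *f11r.1* and *jam2b*. Of 18 genes for partners at adherens and tight junctions 6 were higher and 3 lower at an adjusted p under 0.05, against 13.2% higher and 13.9% lower over all genes, so that the count of lower genes was near the background. The median was -0.01. The higher genes included *jupa*, for plakoglobin (145 ± 37.4 (SD) CPM in CTRL and 285 ± 39.4 in DKO, log2 difference 0.97 ± 0.14), *tjp3*, for the tight junction protein ZO-3 (31.8 ± 14.2 and 71.5 ± 14.2 CPM, 1.17 ± 0.22), *f11r.1*, a junctional adhesion molecule gene (85.2 ± 41.1 and 180.2 ± 41.0 CPM, 1.08 ± 0.26), and *tjp2b*, for ZO-2 (72.4 ± 7.98 and 97.4 ± 18.8 CPM, 0.43 ± 0.11). The lower genes included *esama*, an endothelial adhesion gene that is also in the endothelial marker list (74.0 ± 11.2 and 25.0 ± 9.06 CPM, -1.57 ± 0.18), and *plekha7a*, a junction gene known for a role in zebrafish heart contractility (615 ± 131 and 304 ± 147 CPM, -1.02 ± 0.25). Of 27 genes for focal adhesion partners 7 were higher and 3 lower, with a median of 0.20, against the same 13.2% and 13.9% of all genes, and the share of lower genes was thus no larger than the background. The non-muscle actin crosslinker genes *actn4* (364 ± 71.9 and 753 ± 151 CPM, 1.05 ± 0.13) and *actn1* (159.7 ± 26.1 and 233 ± 41.1 CPM, 0.54 ± 0.12) were higher, as were *ptk2ab*, for focal adhesion kinase (37.5 ± 4.70 and 50.6 ± 5.38 CPM, 0.43 ± 0.10), and *apbb1ip*, for the talin-recruiting protein RIAM of blood cells (6.98 ± 2.44 and 14.1 ± 4.13 CPM, 1.02 ± 0.23). The kinase gene *pak1* (20.8 ± 5.70 and 11.02 ± 1.85 CPM, -0.91 ± 0.17) and *arhgef7b*, for the exchange factor beta-PIX (79.9 ± 10.2 and 54.5 ± 2.48 CPM, -0.55 ± 0.09), were lower. Each of these adjusted p-values from edgeR was 0.00816 or less.

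Ratios of 2 related genes within the same library do not depend on how libraries are scaled. For 13 such pairs they were compared by a two-sided exact permutation test over the 16 libraries with Benjamini-Hochberg adjustment over the pairs; pairs that share a gene are not independent. An adjusted p under 0.05 was reached by 6 of the 13 pairs. The pairs were chosen with earlier results of these data known. *cdh2* and *cdh1*, *alcama* and *alcamb*, and *itgb1b.1* and *itgb1b* join genes already called in opposite directions. *lims2* over *lims1*, *itgb3a* over *itgb3b* and *itgb1b.1* over *itgb1a* each hold a gene already called. The p-values of all these pairs are thus no independent support for those calls. A ratio also still depends on which cells a pool holds, and that part was not tested. The log2 ratio of *cdh2* over *cdh1* was 2.51 to 4.32 in CTRL and 1.12 to 2.96 in DKO, with 7 of 8 DKO libraries below all CTRL libraries and a difference in means of -1.67 (adjusted p = 0.00253 by the exact test). That of *alcama* over *alcamb* was 1.56 to 3.27 in CTRL and 0.16 to 2.2 in DKO, with 5 of 8 below and a difference of -1.35 (adjusted p = 0.00525 by the exact test). *lims2* over *lims1* differed by -0.74 (adjusted p = 0.0236 by the exact test), with 6 of 8 DKO libraries below all CTRL libraries.

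In the 3 integrin pairs that passed, the gene written first gained on the second in DKO. The sign of a ratio depends on which gene is written first, so it does not set these pairs apart from the others. *itgb3a* over *itgb3b* had log2 ratios of -2.2 to 0.88 in CTRL and 0.26 to 2.00 in DKO, a difference of 2.37 (adjusted p = 0.00253 by the exact test) with 7 of 8 DKO libraries above all CTRL libraries. *itgb1b.1* over *itgb1b* differed by 2.18, and *itgb1b.1* over *itgb1a* by 1.5, each with 7 of 8 DKO libraries above all CTRL libraries (adjusted p = 0.00253 for both by the exact test). In CTRL hearts *itgb1b* had more reads than *itgb1b.1* in every library, at log2 ratios of -3.22 to -0.65, whereas in DKO hearts the ratios ran from -1.15 to 1.1. How reads were divided between these neighbours in counting was not checked. The pairs *vcla* over *vclb* (-0.08), *parvb* over *parvab* (-0.34), *parvb* over *parvaa* (-0.55), *tln1* over *tln2a* (-0.36), *itgb1b* over *itgb1a* (-0.68), *itgb1b.2* over *itgb1a* (0.95) and *ncam1a* over *ncam1b* (0.51) did not pass, with adjusted p-values of 0.0837 to 0.701 by the exact test.

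**Figure D3:**
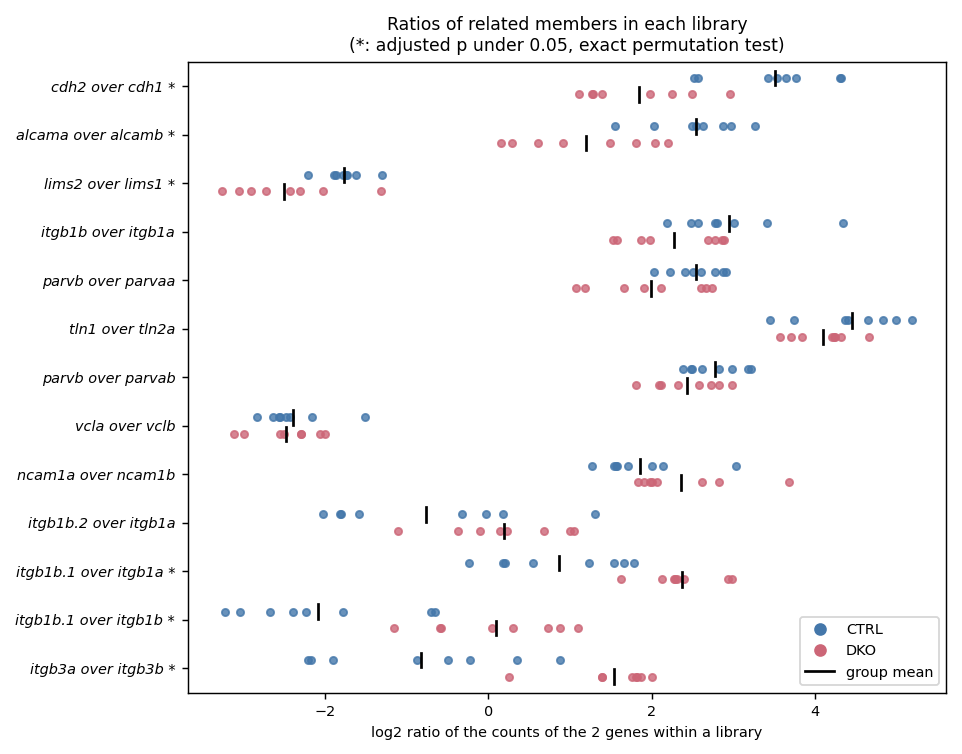
Log2 ratio of the counts of 2 related genes within a library (horizontal axis) for 13 pairs, with 1 dot for each CTRL (blue) or DKO (red) library and a bar for each group mean; an asterisk marks an adjusted p under 0.05 in the exact permutation test. *cdh2* over *cdh1*, *alcama* over *alcamb* and *lims2* over *lims1* lie to the left in DKO, and the 3 marked integrin pairs to the right. The side depends on which gene of a pair is written first.

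Within each group the levels of some genes moved with the marker sums from library to library, which is given as a description without a test. DKO replicates 3, 6, 7 and 8 had the highest cardiomyocyte sums of their group (16911 to 19812 CPM, against 8393 to 11278 CPM in the other 4). They also had the 4 highest DKO values of *alcama*, *cdh2*, *parvb*, *lims2*, *ilk*, *itgb1b* and *mcamb*. Their epidermal sums were the lowest of the group (20945 to 32530 CPM, against 35090 to 46338 CPM in the other 4). *itgb3b* and *itga5* were ordered otherwise: the highest DKO values of *itgb3b* were in replicates 4 and 2, and the lowest of *itga5* was in replicate 3. *itga9*, *vcla*, *nectin3b* and *parvab* followed the cardiomyocyte order in part. Their highest DKO value lay in replicate 7 (*vcla*, *nectin3b*) or 8 (*itga9*, *parvab*), but replicate 1, 2 or 4 was also among their 4 highest. In CTRL, replicates 2 and 4 had epidermal sums of 22350 and 27385 CPM, the highest of the group, and also the highest levels of *itgb1b.1*, *itgb4*, *itgb3a*, *itgav*, *alcamb* and *nectin1b*. Their cardiomyocyte sums, 18566 and 21807 CPM, were the lowest of the group. Replicates 1 and 3 had the lowest epidermal sums, 6599 and 5858 CPM, and the lowest levels of *itgb1b.1*, *itgb1b.2*, *itgb3a*, *cdh1* and *cadm4*. Their cardiomyocyte sums, 35718 and 32423 CPM, were the highest. The cardiomyocyte and epidermal sums thus ran in opposite directions in these libraries. Which of them a gene moved with cannot be told apart. The highest CTRL libraries differed for other higher genes. *cdh1* and *itgb1b.2* were highest in replicate 5 (208.4 and 28.53 CPM), whose epidermal sum was 19698 CPM, and *itgb5* in replicate 3 (24.11 CPM). For *ncam1a* and *cadm4* replicate 4 was the highest but replicate 2 was not the next. A fit without CTRL replicates 2 and 4, added after seeing the data, gave 11 higher and 13 lower genes, with all 23 calls held. It left out the CTRL libraries nearest to DKO for several of these genes, and differences widened. The log2 difference went from 1.57 to 2.04 for *itgb1b.1* and from -0.67 to -0.81 for *parvb*. The fit is therefore no check on the calls.

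**Figure D4:**
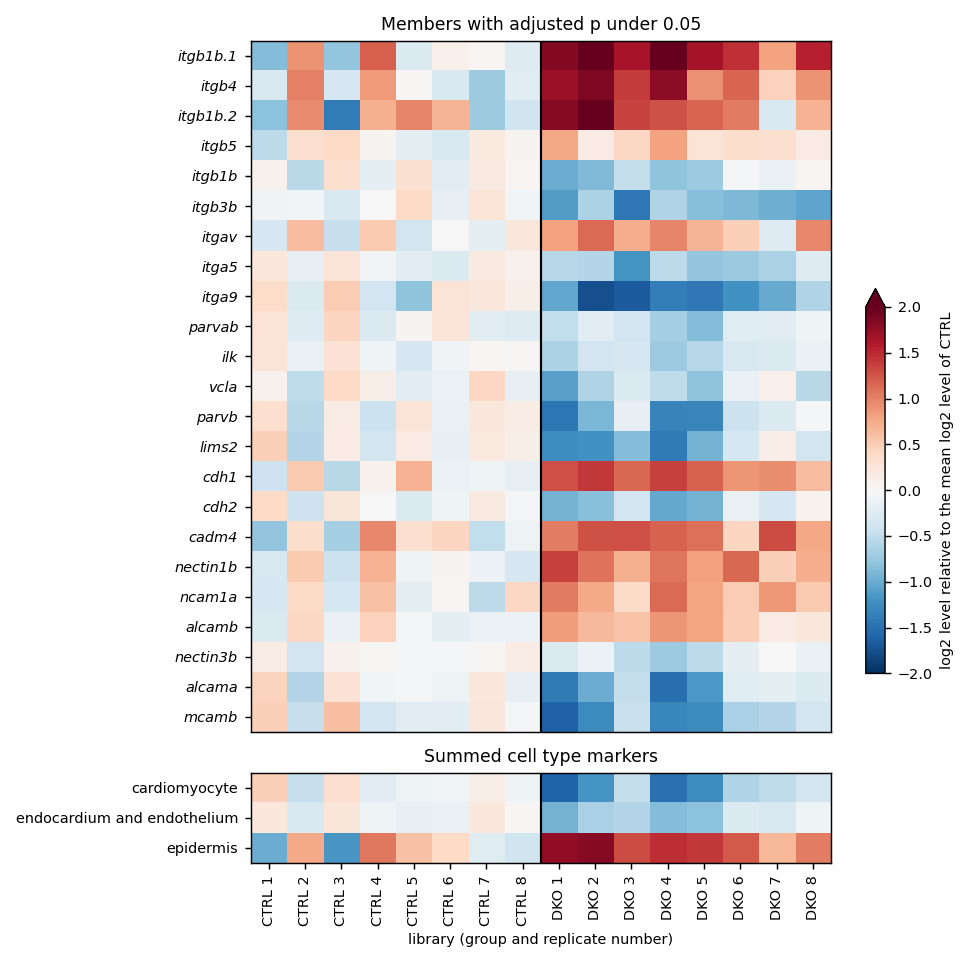
Log2 level in each library (columns) relative to the mean log2 level of CTRL for the 23 adhesion genes with an adjusted p under 0.05 (upper rows) and for 3 summed marker lists (lower rows); the colour scale ends at 2 in either direction. *alcama*, *cdh2*, *parvb*, *lims2*, *ilk*, *itgb1b* and *mcamb* are lowest in DKO replicates 1, 2, 4 and 5. These also have the lowest cardiomyocyte sums (8393 to 11278 CPM) and the highest epidermal sums (35090 to 46338 CPM). Under cardiomyocyte-marker scaling the log2 fold changes of these genes, except *mcamb*, are above 0.

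The direction of most lower genes changed with the scale set between libraries. Scaling on the cardiomyocyte markers moved the median of all genes tested by 0.84 on the log2 scale and scaling on the endocardial markers by 0.75. Under the first 35 of 52 adhesion genes (67.3%) were higher in edgeR, against 72.1% of all genes, and 0 were lower, 0 also at an unadjusted p under 0.05, against 1.67% of all genes. Under the second 35 were higher (67.3%, background 71.4%) and 1, *itga9*, was lower (1.92%, background 2.32%). These shares are near those of all genes. *ilk*, *nectin3b* and *parvab*, lower under TMM, passed as higher under both. The 10 genes higher under TMM were higher under both, from *itgb5* at 1.27 to *itgb1b.1* at 2.38 on the cardiomyocyte scale. Both scalings raised most genes, so this direction was set beforehand. Relative to the median of all genes 24 of the 52 genes were above and 28 below under TMM and under each marker scaling. On that relative scale *alcama* was at -0.75 under TMM, -0.84 under cardiomyocyte and -0.81 under endocardial markers, and *cdh2* at -0.56, -0.63 and -0.61. A change of scale moves all genes by a like amount, so these relative positions were nearly fixed beforehand. They are no check on the calls.

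**Figure D5:**
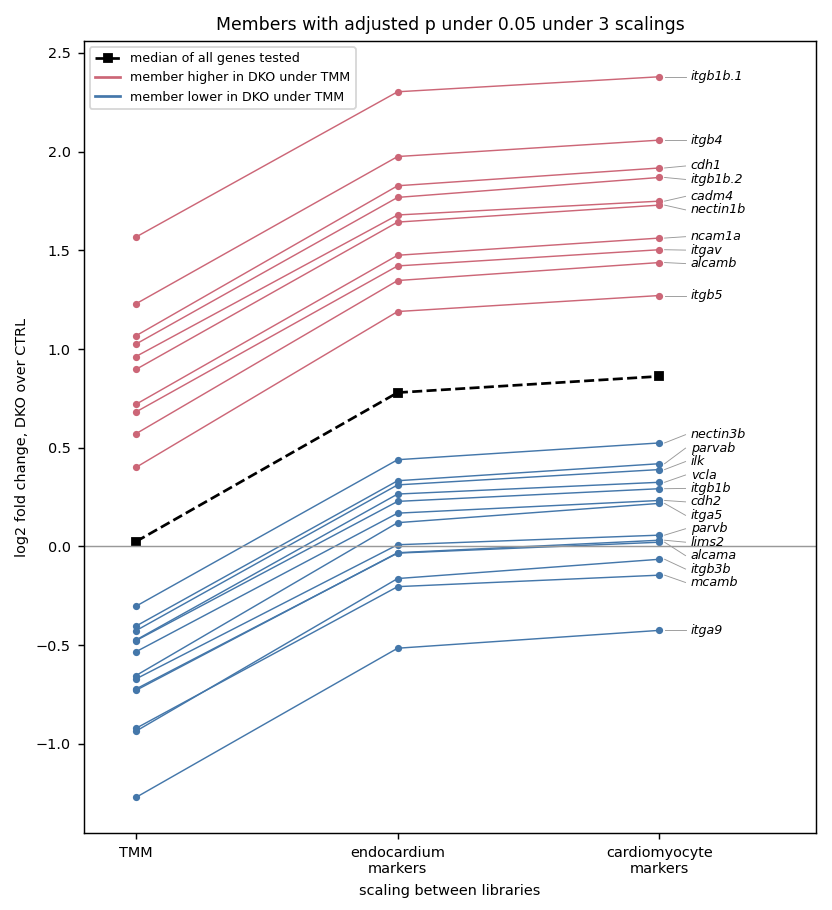
Log2 fold change of DKO over CTRL (vertical axis) of the 23 adhesion genes with an adjusted p under 0.05 under TMM, endocardial-marker and cardiomyocyte-marker scaling, with the median of all genes tested as a dashed line. The 10 genes higher under TMM lie above the dashed line and above 0 throughout, and the 13 lower genes lie below the dashed line throughout, 10 of them above 0 at the cardiomyocyte scale and 8 at the endocardial scale. The dashed line itself rises from 0.02 under TMM to 0.78 on the endocardial and 0.86 on the cardiomyocyte scale. A change of scale moves the genes and the dashed line by a like amount, so the side of the line was set beforehand.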

How the data were processed

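Hearts of 8 CTRL and 8 DKO pools were sequenced by the authors from poly(A) RNA. The authors aligned reads to GRCz11 with STAR 2.6.1a and counted whole reads per RefSeq gene with HTSeq 0.11.2, and the deposited counts are not normalized. The strand setting is not given in the sources used here. The deposited FPKM, used for the study's threshold of 5 and in limma, are the authors' counts scaled to library total and to a gene length that includes introns. Groups came from the labels. Entries naming no gene (59.6% to 65.6% of reads without a feature, 12.8% to 16.4% not unique) were left out. Counts were tested with edgeR 4.0.16 in R 4.3.3 (filterByExpr, TMM, robust quasi-likelihood F-test, no covariates), with SE taken as the log2 fold change over the square root of F. Ratios used each count plus 0.5. DESeq2 1.42.0, limma 3.58.1 on log2(FPKM + 1) and log2(FPKM + 0.1), other scalings and filters, a replicate block and leaving out each library were alternatives, and leaving out CTRL replicates 2 and 4 together was added after seeing the data. No pair of replicates had like counts within sampling error (lowest chi-square per gene 10.8), the pipeline was tested on simulated data, and all 16 libraries were kept.

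The genes, gene lists and pairs were chosen with earlier results of these data known. Full values are given for *alcama*, for the 14 genes with an adjusted p under 0.05 and the largest changes at a mean of at least 5 CPM, for the gene with the most CPM in CTRL in each role group, and for their paralogs. Other genes passing the test are given with their change, and up to 6 per partner list with the smallest adjusted p. CPM are not corrected for length and order genes by reads only. No sequence is printed, and gene names were matched to RefSeq (57 of 57), whose assembly GRCz12tu gave only which genes neighbour each other. Figures were drawn with matplotlib 3.10.9.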

Additional observations from a re-analysis of the deposited data

Results flagged for a closer look

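In CTRL replicate 2 *nectin3b* was at 47.83 CPM, apart from the other 7 CTRL libraries at 60.65 to 69.58 CPM. The gap was 0.589 of the group's range, above Dixon's 95% critical value for 8 samples. Of 46 groups of libraries checked this was the 1 that stood out, and chance alone does so in about 1 in 20. Without this library the log2 difference of *nectin3b* was -0.35 (adjusted p = 0.0176 in edgeR), against -0.30 (adjusted p = 0.0492) with it.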

How the results depend on the processing

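The numbers of higher (10) and lower (13) genes were 12 and 14 in DESeq2, 14 and 9 with library size alone, 13 and 9 in limma on either FPKM scale, and 8 and 12 without a filter on low counts. Over all genes tested the higher and lower genes were 1553 and 1631, against 2608 and 1170 with library size alone, 2602 and 1182 in limma on log2(FPKM + 1), 2619 and 1179 in limma on log2(FPKM + 0.1), 8467 and 196 under cardiomyocyte-marker and 8393 and 273 under endocardial-marker scaling. For the adhesion genes cardiomyocyte-marker scaling gave 35 and 0, with 6 and 0 past the study's thresholds, and under endocardial-marker scaling 35 and 1, with 6 and 0. The study's thresholds gave 2 higher and 4 lower genes, 8 and 7 without the FPKM threshold, and 1 lower gene with library size alone or with limma on log2(FPKM + 1). Under cardiomyocyte-marker scaling the log2 fold changes turned to 0.022 for *alcama*, 0.23 for *cdh2*, 0.39 for *ilk*, 0.22 for *itga5*, 0.29 for *itgb1b*, 0.032 for *lims2*, 0.52 for *nectin3b*, 0.42 for *parvab*, 0.057 for *parvb* and 0.33 for *vcla*. Under endocardial-marker scaling they turned to 0.17 for *cdh2*, 0.31 for *ilk*, 0.12 for *itga5*, 0.23 for *itgb1b*, 0.44 for *nectin3b*, 0.33 for *parvab*, 0.0088 for *parvb* and 0.27 for *vcla*. Each marker scaling set the median relative level of its own cell type markers equal between libraries by construction. Leaving out each library in turn gave 8 to 11 higher and 8 to 13 lower genes (8 lower without DKO replicate 4), 2 to 3 and 3 to 5 past the study's thresholds, and 6 to 8 gene pairs. Same-numbered CTRL and DKO libraries did not deviate together (correlations -0.275 to 0.107, 0 of 8 numbers best matched with their own), so the numbers were not taken to pair them. With the replicate number as a block the counts were 11 and 12 genes and 7 pairs, and the calls of *itgb5*, *nectin3b* and *parvab* were lost. Depth limits the genes under about 10 CPM, whose standard errors reached 0.58.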
